A study of [Candida] boidinii with 12 samples.

Results

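A set of 221 genes of the yeast Candida boidinii, of 5712 rows in the files, had lower messenger RNA on methanol than on glucose both in the strain LA001-14 and in wild type. The members were chosen by a rule on measured values. Rows averaging 50 counts or more over the 12 libraries, LDH left out, were kept (5034 rows), and CPM is the count divided by its library's total and multiplied by 1000000. The log2 change of methanol over glucose, from group means with 1 CPM added, was called L in LA001-14 and W in wild type, and each was centred on its median over the kept rows. A gene belongs to the set when L is -1 or lower and W lies between -3 and -1, the upper limit included. The falls on methanol are therefore a description of how the genes were picked, and no test of them is used as support.

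RNA sequencing compared 4 groups of 3 libraries, all after 6 h of culture: LA001-14 in YPM medium with 2% (w/v) methanol, LA001-14 in YPD medium with 2% (w/v) glucose, and wild type, of strain CICC#33029, in the same media. LA001-14 was made from that wild type and produces L-lactic acid; per the labels it carries a lactate dehydrogenase cassette (PENO1-BtL-LDH-TTEF2) and a kanamycin resistance cassette (PTDH3-KanR-TTEF2), both at random positions in the chromosomes. It is a single strain, so a difference from wild type cannot be assigned to either cassette, to where they landed or to other changes in that strain. By the usual recipe both media also hold yeast extract and peptone. Replicates are called biological, but nothing says that they came from separate cultures, so the p-values below rest on the spread between libraries, which may be technical only.

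C. boidinii is a methylotrophic yeast: it oxidises methanol to formaldehyde in peroxisomes and either assimilates the formaldehyde or burns it to carbon dioxide. Glucose represses the genes of that pathway, and methanol induces them. Growth on glucose instead relies on hexose transporters and glycolysis. The files pair none of the CB identifiers with a name or function, so members are given by identifier and coding length, and nothing is said of what they encode.

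Total counts ran from 8045977 to 14107813 per library. LDH had 16132 to 76402 reads in the 6 LA001-14 libraries, against no read in 5 wild-type libraries and 1 read in the other, so the libraries match their strain labels. Replicate 1 of wild type on glucose was the least like its group, with a chi-square per degree of freedom of 25 and 32.3 against replicates 2 and 3, which gave 5.59 between them. In these bulk libraries a lower level cannot be split into fewer cells with the transcript and less of it per cell.

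L and W are given here to describe the members; the limits at -1 and -3 largely set their medians. The median L was -1.52 in LA001-14, with the middle 50% of members between -1.85 and -1.24, and the median W was -1.51 in wild type, with the middle 50% between -1.96 and -1.20. In both strains 151 members fell by between 2-fold and 4-fold, and 20 fell by at least 4-fold in each. The lowest L was -4.50, while the rule stopped W at -3. L and W of a member differed by less than 0.5 for 134 members and by 1 or more for 31, of which 16 fell further in LA001-14 and 15 further in wild type. The middle 50% of L minus W ran from -0.46 to 0.32 in the members and from -0.58 to 0.47 in the 5034 kept rows, so small differences between the strains are common among all rows. By its choice of members the rule fixed the outcome of a test of these same contrasts (edgeR quasi-likelihood test, Benjamini-Hochberg adjusted p under 0.05): all 221 were called lower on methanol in LA001-14 and all 221 in wild type, where 29.7% and 35.3% of all tested rows were, and nothing is read from these counts.

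**Figure D1:**
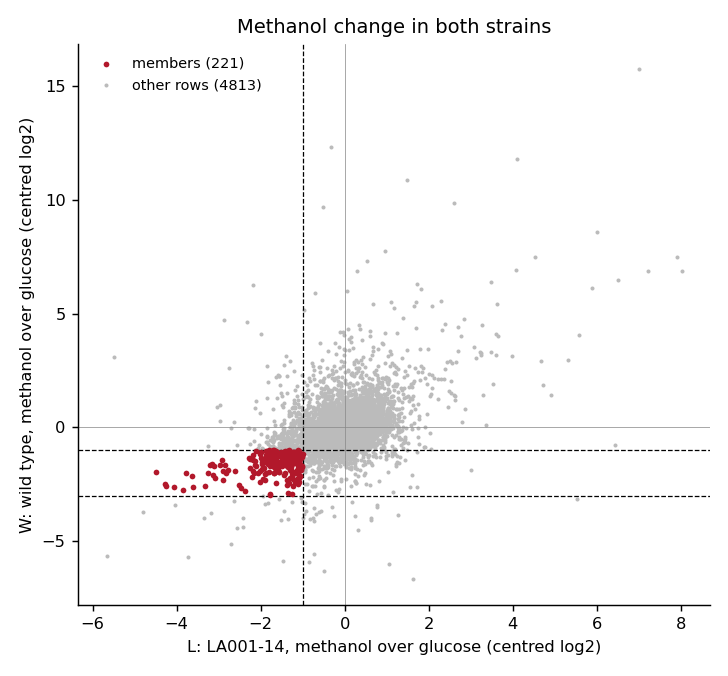
Methanol change of 5034 rows in LA001-14 (x axis, L) and in wild type (y axis, W), both centred log2 ratios of methanol over glucose, with the 221 members in red and the other 4813 rows in grey; dashed lines are the limits of the rule at -1 and -3. The lowest members reach -4.50 along L and stop at the rule's limit of -3 along W, while the middle 50% spans -1.85 to -1.24 along L and -1.96 to -1.20 along W.

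The limits run through a continuous cloud of genes. Just inside the upper limit of W lay members with W of -1.01 and -1.01, and just outside it rows with W of -0.997 and -0.996. At the limit of L the nearest members had L of -1.003 and -1.01, and the nearest rows outside had -0.996 and -0.992. At the lower limit of W the nearest members had W of -2.97 and -2.94, and the nearest rows beyond it -3.02 and -3.12. In all, 47 members lay within 0.1 of a limit, and 47 other rows lay within 0.1 beyond one.

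Most members stood higher in LA001-14 than in wild type when the carbon sources were averaged, a comparison the rule did not use. The strain average, the mean of the LA001-14 over wild-type log2 differences on methanol and on glucose, weighs both carbon sources of a strain equally, so the methanol changes that chose the members cancel out of it. It was called higher in LA001-14 for 173 of 221 members (78.3%), against 33.5% of the 5466 rows tested, and lower for 25 (11.3%), against 34.5% (edgeR quasi-likelihood test, Benjamini-Hochberg adjusted p under 0.05 over all rows). Among the 5034 kept rows, from which all members come, 34.3% were called higher and 35.8% lower. The remaining 23 members (10.4%) did not pass the test, against 31.9% of rows tested. The median strain average of the members was 0.88 on the log2 scale, with the middle 50% between 0.39 and 1.11, and that of all rows tested was -0.0056, with the middle 50% between -0.39 and 0.36.

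For 140 members the strain average lay between 0.5 and 1.5, that is around 2-fold. It was called and at least 2-fold in 84 members with higher levels in LA001-14 (38.0%, against 5.85% of rows tested) and in 8 with lower levels (3.62%, against 6.97%). All tests used TMM, which scales libraries for their composition; when library totals were used instead, the median of all rows moved to 0.24, with 2764 rows called higher and 1130 lower in place of 1833 and 1887. The members' median then moved to 1.12, so their distance from the median row stayed at 0.88.

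**Figure D2:**
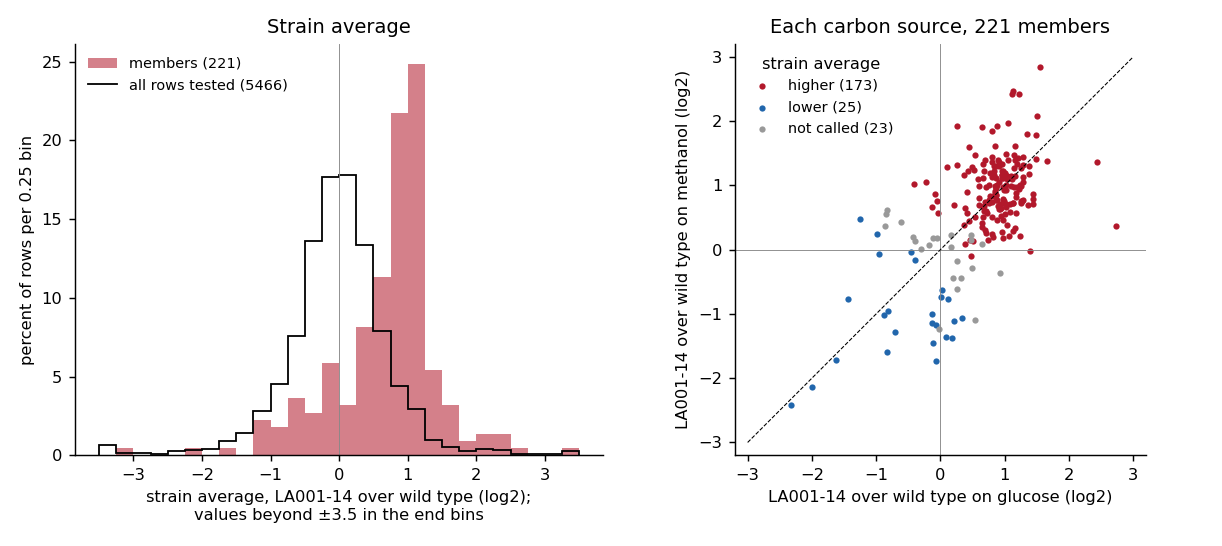
Left, percent of the 221 members (red) and of all 5466 rows tested (black line) in bins of the strain average, LA001-14 over wild type on the log2 scale; right, each member's difference between LA001-14 and wild type on glucose (x axis) and on methanol (y axis), log2 of group mean TMM CPM with 1 added, coloured by the call for the strain average, with the dashed line marking equality. The members' distribution peaks near 1 and the rows' near 0, and most members lie in the upper right part of the scatter plot.

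On each carbon source alone the same shift appeared, given here as a description because those libraries also entered the rule. On methanol the members' median difference between LA001-14 and wild type was 0.76 on the log2 scale, and on glucose it was 0.84, where the kept rows had medians of 0.0028 and 0.0071. In TMM CPM, all 3 LA001-14 libraries lay above all 3 wild-type libraries on methanol for 161 members (72.9%, against 35.5% of rows tested). On glucose all 3 did for 166 (75.1%, against 32.2%). They did so on both carbon sources for 143 members (64.7%, against 15.1%). The opposite order on both was seen for 9 (4.07%, against 15.0%). Across members the differences on glucose and methanol correlated with a Pearson r of 0.63 and a Spearman rho of 0.55 (n = 221), and across the kept rows with 0.17 and 0.22 (n = 5034). These are correlations across genes measured in the same libraries and are given as descriptions. Apart from scaling, the methanol difference minus the glucose difference is L minus W, whose range the rule narrowed. L minus W ran from -2.54 to 1.66 in the members and from -12.65 to 8.685 in the kept rows. Agreement between the carbon sources, in these correlations and in the non-overlap on both, is thus partly set by the rule.

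By group means, 160 of the 221 members followed a single order of levels: highest in LA001-14 on glucose, then wild type on glucose, then LA001-14 on methanol, and lowest in wild type on methanol. The rule required methanol to lie about 2-fold or more below glucose within each strain. Where the strains differ by less than that, both glucose means lie above both methanol means. The place of wild type on glucose above LA001-14 on methanol is thus largely set by the rule. The share of all rows with this order was not computed. In 10 members LA001-14 on methanol averaged above wild type on glucose, but in no member did all 3 of those methanol libraries exceed all 3 wild-type glucose libraries. In 2 members the wild type on methanol averaged above LA001-14 on glucose. The median difference between LA001-14 on methanol and wild type on glucose was -0.61 on the log2 scale, with the middle 50% of members between -1.31 and -0.39. Relative to each member's mean over the 12 libraries, the median member stood at -0.41, -0.29 and -0.31 in the LA001-14 methanol libraries and at 1.15, 1.17 and 1.12 in the LA001-14 glucose libraries. It stood at -1.12, -1.10 and -1.18 in the wild-type methanol libraries and at 0.43, 0.37 and 0.22 in the wild-type glucose libraries.

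**Figure D3:**
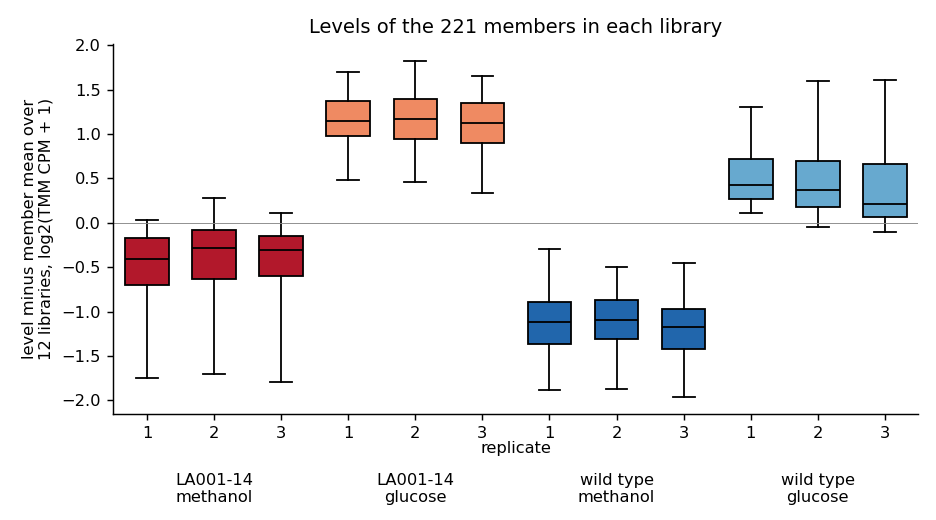
Level of the 221 members in each library, as log2(TMM CPM + 1) minus the member's own mean over 12 libraries; boxes span the middle 50%, lines are medians and whiskers reach the 5th and 95th percentiles. The boxes of LA001-14 stand above those of wild type on methanol, and likewise on glucose.

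Other sets lowered on methanol had smaller median strain averages, and in each of them the median differences on methanol and on glucose had opposite signs. The median strain average was 0.62 for 49 genes lowered at least 8-fold in wild type (W of -3 or lower), 0.34 for 376 genes with W in the members' range but L above -1, and 0.35 for 292 genes with L of -1 or lower but W above -1. In the 49 genes the median difference between LA001-14 and wild type was 1.91 on methanol and -0.77 on glucose. In the 376 genes it was 0.97 on methanol and -0.31 on glucose, and in the 292 genes -0.12 on methanol and 0.88 on glucose. On a single carbon source such sets thus equalled or exceeded the members' medians of 0.76 on methanol and 0.84 on glucose. For 147 genes raised at least 2-fold in both strains the median strain average was -0.53. These sets were not tested against each other, and each was picked on methanol changes in the same libraries. The median L minus W was 2.83, 1.155 and -1.09 in the 49, 376 and 292 genes, against -0.076 in the members. Their limits on L or W favour such a gap, so the opposite signs follow largely from how the sets were picked.

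The 2 members with the highest strain averages among those called without overlap had few reads in wild type on methanol. They were CB2515.t1 (coding length 2646 bases) and CB5089.t1 (1047 bases). CB2515.t1 had 10.5, 8.50 and 5.78 TMM CPM in LA001-14 on methanol and 0.423, 0.362 and 0.101 in wild type on methanol. On glucose it had 16.1, 20.1 and 15.3 TMM CPM in LA001-14 and 5.98, 4.30 and 5.23 in wild type. Every LA001-14 library thus exceeded every wild-type library of the same carbon source, and the strain average of CB2515.t1 was 3.27 (SE 0.23, edgeR adjusted p = 2.55e-11), with the wild-type methanol level resting on 3, 4 and 1 reads.

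CB5089.t1 had 3.51, 3.56 and 3.33 TMM CPM in LA001-14 on methanol and 0.141, 0.181 and 0.202 in wild type on methanol, from 1, 2 and 2 reads. On glucose the levels of CB5089.t1 were 9.23, 15.7 and 11.4 TMM CPM in LA001-14 and 5.80, 6.39 and 6.08 in wild type. The LA001-14 and wild-type libraries did not overlap on either carbon source, and the strain average was 2.60 (SE 0.12, edgeR adjusted p = 1.06e-08). Taken with 2 reads added, this SE understates the counting noise of 1, 2 and 2 reads in wild type on methanol.

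Against this direction, CB1453.t1 (687 bases) and CB2172.t1 (1536 bases) were the members with the lowest strain averages by the naming rule. CB2172.t1 had 28.5, 23.0 and 18.1 TMM CPM in LA001-14 on methanol and 106, 96.0 and 114 in wild type on methanol. On glucose CB2172.t1 had 64.2, 48.2 and 53.9 TMM CPM in LA001-14 and 200, 245 and 227 in wild type. Its highest LA001-14 glucose library thus lay below its lowest wild-type methanol library, and the strain average was -2.09 (SE 0.12, edgeR adjusted p = 3.93e-14).

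CB1453.t1 averaged 0.803 ± 0.463 TMM CPM in LA001-14 on methanol, from 7, 6 and 12 reads, and 8.67 ± 1.77 in wild type on methanol (SD, n = 3 each). On glucose it averaged 3.26 ± 0.139 TMM CPM in LA001-14 and 20.4 ± 0.764 in wild type (SD, n = 3 each). These libraries did not overlap either, and the strain average of CB1453.t1 was -3.07 (SE 0.22, edgeR adjusted p = 2.53e-12).

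A few very abundant members held most of the members' counts. Of the 4 most abundant, 1 was called higher in LA001-14 by the strain average, though it was lower on glucose. The members together took 5.29% ± 0.126 of all counts in LA001-14 on methanol and 13.6% ± 0.316 in LA001-14 on glucose, and 3.12% ± 0.0539 in wild type on methanol and 15.6% ± 1.40 in wild type on glucose (SD, n = 3 each). The 4 most abundant, CB0826.t1 (1002 bases), CB1783.t1 (1314 bases), CB3013.t1 (1047 bases) and CB0128.t1 (1080 bases), accounted for 3.38% ± 0.177 and 7.66% ± 0.371 of the LA001-14 counts on methanol and glucose. Of the wild-type counts they took 2.00% ± 0.0491 on methanol and 10.9% ± 1.27 on glucose. The other 217 members held 1.92% ± 0.0519 in LA001-14 on methanol against 1.12% ± 0.0134 in wild type on methanol, and 5.91% ± 0.0566 in LA001-14 on glucose against 4.76% ± 0.126 in wild type on glucose. These shares are of library totals, without TMM. On glucose the TMM factors were 1.07, 1.12 and 1.15 in LA001-14 and 1.03, 0.939 and 0.903 in wild type. On methanol they were 1.029, 1.097 and 1.078 in LA001-14 and 0.8745, 0.8757 and 0.8869 in wild type. Scaling by these factors would narrow the strain gap of the 217 on both carbon sources. The strain average was 0.31 for CB1783.t1 (edgeR adjusted p = 0.000501) and -0.89 for CB0128.t1 (adjusted p = 1.24e-08), while CB0826.t1 at -0.11 and CB3013.t1 at -0.14 did not pass (adjusted p = 0.247 and 0.103). CB3013.t1 and CB0128.t1 fall outside the naming rule and were added after their values were seen.

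**Figure D4:**
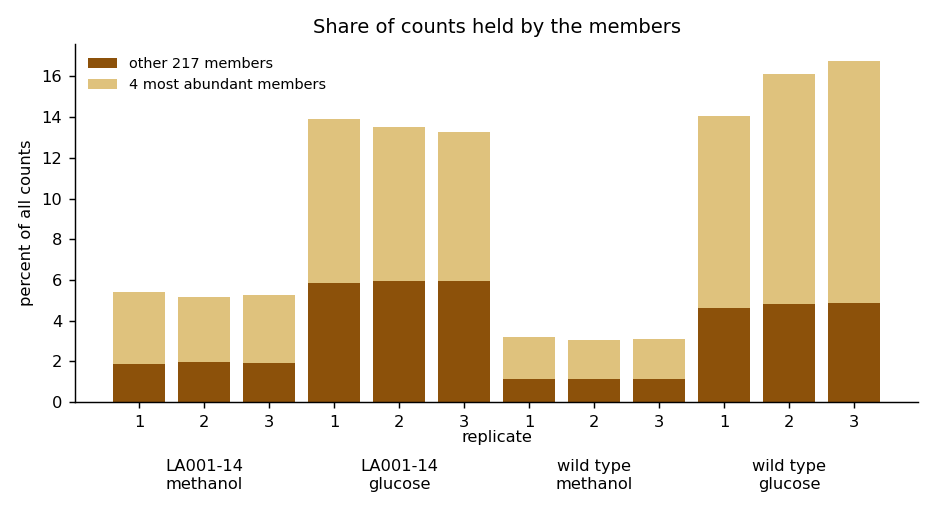
Share of all counts in each library held by the 4 most abundant members (light) and by the other 217 (dark). On glucose the light part is higher in wild type, and the dark part is higher in LA001-14 on each carbon source. Shares are of library totals, without TMM.

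CB0826.t1, the most abundant member, ranked 2 among all rows by mean CPM. It had 16100, 13003 and 14491 TMM CPM in LA001-14 on methanol and 9694, 9360 and 9485 in wild type on methanol. On glucose it had 32829, 29509 and 26416 TMM CPM in LA001-14 and 41964, 56035 and 59850 in wild type. LA001-14 was thus above wild type on methanol and below it on glucose with no overlap, and the strain average of CB0826.t1, which mixes these, was -0.11 (SE 0.10, edgeR adjusted p = 0.247); without wild type on glucose replicate 1 it was -0.14 (adjusted p = 0.0476), without wild type on glucose replicate 3 -0.06 (adjusted p = 0.520) and with library totals 0.14 (adjusted p = 0.0191).

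CB1783.t1 had 8696, 7641 and 7721 TMM CPM in LA001-14 on methanol and 3931, 3929 and 3932 in wild type on methanol. On glucose CB1783.t1 had 19273, 17417 and 17145 TMM CPM in LA001-14 and 19752, 24392 and 27081 in wild type. LA001-14 was thus above wild type on methanol, with ranges well apart, and below it on glucose, where the ranges nearly touched. The strain average of CB1783.t1, which mixes these, was 0.31 (SE 0.078), and 0.56 with library totals. In wild type on glucose, replicate 1 was the lowest library for both CB0826.t1 and CB1783.t1. By library totals, without TMM, the strains overlapped on glucose for CB1783.t1.

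The members that fell most in wild type compared with LA001-14 were CB5181.t1 (1248 bases) and CB0121.t1 (1218 bases), with L minus W of 1.66 and 1.54. CB5181.t1 had 2947, 2532 and 2601 TMM CPM in LA001-14 on methanol and 6382, 5950 and 5990 in LA001-14 on glucose. In wild type it had 1989, 1892 and 1907 TMM CPM on methanol and 11059, 15458 and 17303 on glucose. Like CB0826.t1 it was higher in LA001-14 on methanol and lower on glucose, and its strain average was -0.39 (SE 0.10, edgeR adjusted p = 0.000226), and -0.13 with library totals (adjusted p = 0.0355). CB0121.t1 averaged 7.80 ± 1.49 TMM CPM in LA001-14 on methanol and 20.4 ± 3.63 in LA001-14 on glucose, and 1.32 ± 0.926 in wild type on methanol and 17.0 ± 1.63 in wild type on glucose (SD, n = 3 each). Its wild-type methanol level rests on 15, 17 and 3 reads. Its libraries overlapped between the strains on glucose only, and its strain average was 1.44 (SE 0.36, edgeR adjusted p = 1.51e-06).

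The lowest W belonged to CB5318.t1 (1722 bases) at -2.97 and CB4708.t1 (2832 bases) at -2.94, with L of -1.79 and -1.77. CB5318.t1 had 9.79, 14.2 and 10.2 TMM CPM in LA001-14 on methanol and 38.6, 46.9 and 33.6 in LA001-14 on glucose. In wild type CB5318.t1 had 1.55, 0.724 and 1.71 TMM CPM on methanol, from 11, 8 and 17 reads, and 21.3, 19.1 and 13.4 on glucose. All LA001-14 libraries were above the wild-type libraries of the same carbon source, with a strain average of 2.14 (SE 0.23, edgeR adjusted p = 1.88e-10). CB4708.t1 was far more abundant and stood the other way on glucose. It averaged 598 ± 22.0 TMM CPM in LA001-14 on methanol and 1937 ± 76.0 in LA001-14 on glucose, and 503 ± 15.1 in wild type on methanol and 3842 ± 579 in wild type on glucose (SD, n = 3 each). Its strain average was -0.37 (SE 0.069, edgeR adjusted p = 1.63e-05), and -0.12 with library totals (adjusted p = 0.0197).

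**Figure D5:**
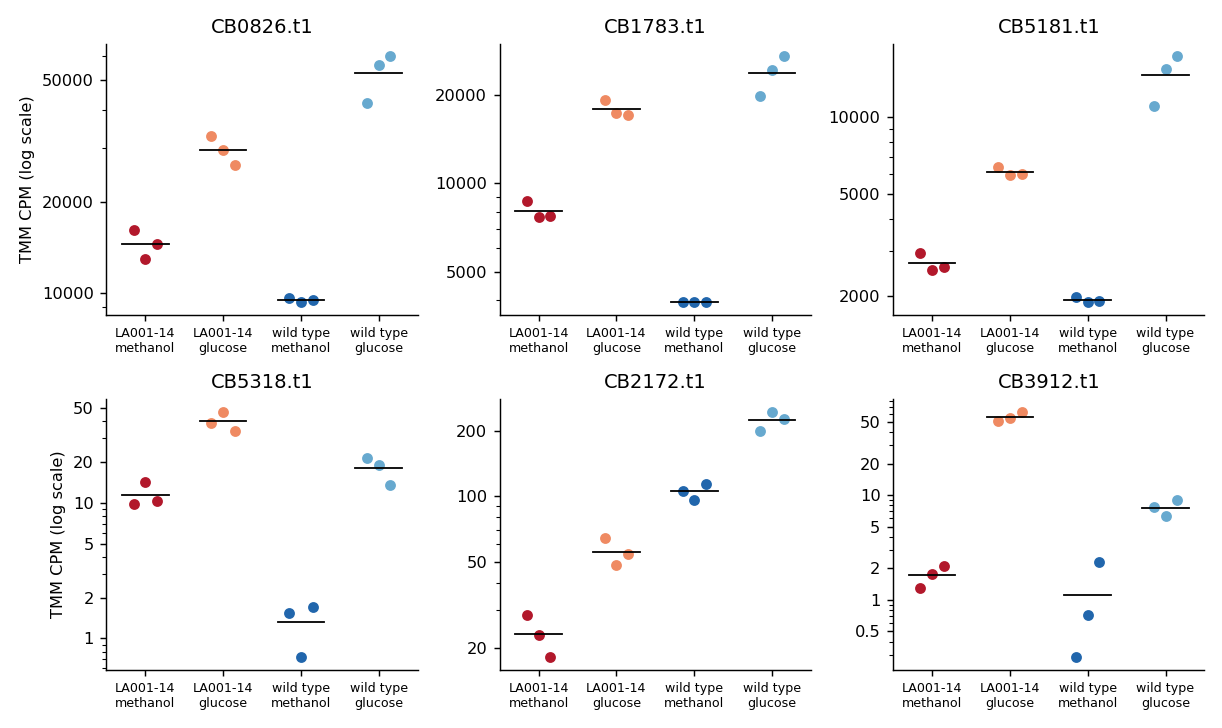
TMM CPM (log axis) of 6 members in each library, with bars at the mean of each group of 3. CB0826.t1, CB1783.t1 and CB5181.t1 are higher in LA001-14 than in wild type on methanol and lower on glucose, CB5318.t1 is higher in LA001-14 on both, CB2172.t1 is lower in LA001-14 on both, and CB3912.t1 shows its strain difference on glucose.

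The deepest falls in LA001-14 were seen in CB3912.t1 (2967 bases), with L of -4.50 and W of -1.96, and CB1190.t1 (4323 bases), with L of -4.28 and W of -2.51. These also had the lowest L minus W, at -2.54 and -1.77. CB3912.t1 had 1.31, 1.78 and 2.11 TMM CPM in LA001-14 on methanol and 51.2, 54.6 and 63.1 in LA001-14 on glucose. In wild type CB3912.t1 had 0.282, 0.724 and 2.32 TMM CPM on methanol, from 2, 8 and 23 reads, and 7.65, 6.27 and 8.96 on glucose. The strains overlapped on methanol and were far apart on glucose, where LA001-14 was higher. Its strain average was 1.70 (SE 0.34, edgeR adjusted p = 2.16e-06), and it was 2.24 without wild type on methanol replicate 3, the library with 23 reads.

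CB1190.t1 had 3.79, 1.98 and 1.22 TMM CPM in LA001-14 on methanol and 5.92, 5.43 and 6.96 in wild type on methanol. On glucose CB1190.t1 had 56.2, 61.1 and 59.4 TMM CPM in LA001-14 and 28.7, 51.6 and 40.2 in wild type. LA001-14 was below wild type on methanol and above it on glucose, and the strain average of CB1190.t1 of -0.36 did not pass the test (SE 0.25, edgeR adjusted p = 0.0856). Over the alternatives it ran from -0.67 to -0.12: it passed without LA001-14 on methanol replicate 1, at -0.67 (adjusted p = 0.00341), and without wild type on glucose replicate 1, at -0.42 (adjusted p = 0.0165). It was -0.23 without LA001-14 on methanol replicate 3 (adjusted p = 0.246) and -0.12 with library totals (adjusted p = 0.553).

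A group of 24 members with L of -2.5 or lower, a limit chosen after the values were seen, is described beside the remaining 197. Its median strain average was -0.45, with 16 of 24 below 0, and that of the other 197 was 0.90, with 23 below 0. It was called lower in LA001-14 for 12 of the 24 and higher for 6, against 13 and 167 of the 197. Of all rows tested, 34.5% were called lower and 33.5% higher. The median L minus W was -1.21 in the 24 and -0.028 in the 197, a gap that the limit on L favours. The strain average mixes the carbon sources, so a value below 0 need not hold on each. The median coding length was 2506 bases in the 24 and 1668 bases in the 197, and 9 of the 24 were longer than 3800 bases. That length limit was also chosen after the values were seen, and no matching count is given for the 197. The 9 include 4 members of exactly 4323 bases, described below. The median of mean CPM over the 12 libraries was 18.8 in the 24 and 66.4 in the 197. No test of this group as a set is given.

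Identifiers of the strongly lowered members often lay close together in number. Of the 24, 13 had another member as the next or previous number, and 7 lay between CB3479.t1 and CB3490.t1. That stretch of 12 identifiers held 7 members, and away from it no 12 consecutive identifiers held more than 3. Of its other 5 rows, 4 were below the mean of 50 counts, and CB3486.t1 had L of -1.83 and W of -0.74. CB3482.t1 (2151 bases) was the most abundant of the 7, with 71.1, 58.9 and 67.5 TMM CPM in LA001-14 on methanol against 583, 547 and 474 in LA001-14 on glucose. In wild type CB3482.t1 had 84.9, 84.3 and 73.2 TMM CPM on methanol and 365, 358 and 420 on glucose. Over the stretch, L of the 7 members ran from -3.78 to -2.83 and W from -2.57 to -1.64. The stretch was singled out after the values were seen, and the files do not say whether identifier numbers follow the order of genes on a chromosome.

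A coding length of exactly 4323 bases recurred among these genes. It was given for 7 rows, the most of any length above 3000 bases, where the next most frequent had 6. Members were 4 of the 7: CB1189.t1, CB1190.t1, CB3483.t1 and CB4217.t1, with L of -4.07, -4.28, -2.97 and -3.21. CB3485.t1, with 390 reads over the 12 libraries, had L of -2.77, and the remaining rows were CB1807.t1, with L of 0.43, and CB4628.t1, with 13 reads. How the counting treated reads that match several genes is not given, so if any of these sequences are near-identical copies their counts are uncertain; no sequence was used here to check this.

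Over all members, 38 (17.2%) had another member as the next or previous identifier, in 18 runs of at most 3. The share was 22.4% for the 49 genes lowered at least 8-fold in wild type, 19.4% for the 376 lowered in wild type without a 2-fold fall in LA001-14, 14.7% for the 292 with the reverse, and 11.6% for the 147 raised in both strains. The sets differ in size, which by itself changes such a share.

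Levels per length, in the authors' FPKM, placed the typical member near or above the median kept row on glucose and below it on methanol. The median member stood at 22.8 in LA001-14 on methanol and 66.0 in LA001-14 on glucose, and at 9.93 in wild type on methanol and 33.3 in wild type on glucose. The kept rows had medians of 39.3 and 40.5 in LA001-14 and of 33.6 and 34.1 in wild type, in the same order. Members above the median kept row made up 63.3% in LA001-14 on glucose and 49.3% in wild type on glucose. Their median coding length was 1683 bases, against 1467 bases for the kept rows. Split into 4 classes by mean CPM, the members had median strain averages of 0.84, 0.91, 0.89 and 0.78 from the least to the most abundant class, so the median was above 0 in each. Its Spearman correlation across members was -0.095 with mean CPM and -0.020 with coding length (n = 221, a description across genes of the same libraries).

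The spread between replicates of the members was near that of the kept rows on glucose and somewhat wider on methanol, by its medians. The median coefficient of variation within a group was 9.46% in LA001-14 on methanol and 8.77% in LA001-14 on glucose, against 7.29% and 8.76% for the kept rows. In wild type it was 10.5% on methanol and 10.3% on glucose, against 6.92% and 9.47% for the kept rows. Of the members, 26 had fewer than 10 reads in at least 1 of the 12 libraries, and none had 0.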

How the data were processed

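Each of the 12 files, per the file headers, holds for 5712 coding sequences the raw count of reads and the FPKM that the authors deposited. The submitters' processing notes name Bowtie2 2.5.4; how reads were counted, on which build and annotation and whether by strand, is not given in the sources used here. Dividing counts by coding length and column sum returned the deposited FPKM within 2.4e-06 percent, so FPKM has no composition scaling. Members and lists were chosen with earlier results of these data known.

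Counts were tested with edgeR 4.0.16 in R 4.3.3: filterByExpr on the 4 groups left 5466 rows, library sizes were scaled by TMM, and all 12 libraries entered 1 robust quasi-likelihood model of the 4 group means, with Benjamini-Hochberg adjustment over all rows and a threshold of 0.05. The contrast weighted both groups of each strain by 0.5. The procedure was first run on simulated counts with a known strain difference and no carbon effect. Unlike the members, those counts hold no methanol change, so nothing is read from that run for the members. TMM CPM is the count divided by the TMM-scaled library size, times 1000000. SE comes from the spread of replicates around group means in log2 CPM with 2 reads added. In groups with few reads the added reads damp that spread, so SE can understate the noise there. Named members are the 2 lowest in L and in W, the 2 most abundant, the 2 at each end of L minus W, and, among called members whose strains did not overlap on either carbon source, the 2 at each end of the strain average. Alternatives were DESeq2 1.42.0, other scalings and filters, and leaving out each library. Within groups the chi-square per degree of freedom between replicates was 4.03 to 32.3, beyond counting noise, so none was merged. Pathway lists were not run, since the identifiers carry no names. Depth was 8045977 to 14107813 counts, which limits members with few reads on methanol.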

Additional observations from a re-analysis of the deposited data

Results flagged for a closer look

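In TMM CPM, the strain difference of 10 members had opposite signs on the carbon sources with no overlap between libraries. This was not tested, since the rule used the methanol changes. Of all rows tested, 8.58% were above wild type on glucose and below it on methanol in LA001-14, and 9.22% were the other way round. Among members, 4 had every LA001-14 library below wild type on methanol and above it on glucose: CB1189.t1, CB1190.t1, CB3482.t1 and CB5414.t1, with L between -4.28 and -3.08. The other way round there were 6: CB0826.t1, CB1783.t1, CB3013.t1, CB3705.t1, CB4708.t1 and CB5181.t1. Those outside the naming rule were named after their values were seen. By library totals, without TMM, the strains overlapped on methanol for CB1189.t1 and CB3482.t1 and on glucose for CB1783.t1. Of the 6, CB0826.t1, CB1783.t1 and CB3013.t1 were the most abundant members. CB3013.t1 averaged 6684 ± 345 TMM CPM in LA001-14 on methanol and 4561 ± 271 in wild type on methanol (SD, n = 3 each). On glucose CB3013.t1 had 14709, 13284 and 12589 TMM CPM in LA001-14 and 19286, 25137 and 28264 in wild type, where replicate 1 was again the lowest.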

How the results depend on the processing

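The count of members called higher in LA001-14 was 172 to 175 without any single library and 173 to 181 under the other settings tried (RLE, upper quartile, library totals, no filter, DESeq2, without the 20 most abundant rows, and a replicate block), and the count called lower was 23 to 28 and 19 to 25. With the replicate block 174 were higher and 24 lower. The labels do not say that replicate numbers pair the samples, and same-numbered libraries correlated between -0.35 and 0.19, with 2 of 18 pairs above 0.1, and a library correlated best with its own number in 12 of 36 comparisons, so the block was not used. The rule with TMM, no centring, another added CPM or another count minimum gave 172 to 242 members, of which 165 to 219 were among the 221; without single libraries it gave 208 to 232, of which 204 to 220 were. Without the 20 most abundant rows, 5 of them members, the members' share of counts was 1.97% in LA001-14 on methanol, 6.49% in LA001-14 on glucose, 1.22% in wild type on methanol and 4.41% in wild type on glucose. The median W was -1.62 from library totals without centring, by the construction of that setting (the centre of W is -0.11). The strain average of CB0826.t1 turned to 0.14 with library totals. Among members picked by the naming rule, no other changed sign under the settings tried. Library totals, which moved the median of all rows to 0.24, gave -0.12 for CB4708.t1 and -0.13 for CB5181.t1. They gave -0.12 for CB1190.t1 and 0.56 for CB1783.t1. Members named outside that rule, such as CB3013.t1, were not followed through the settings, so whether their signs hold is not given. Low counts on methanol limit the folds of CB2515.t1, CB5089.t1, CB3912.t1, CB5318.t1 and CB0121.t1 (few reads in wild type) and of CB1453.t1 (few in LA001-14).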
